A study of Sus scrofa with 12 samples.

Results

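The contractile genes of smooth muscle were examined in pig hearts after ischaemia-reperfusion injury. The set was a list of 10 genes, namely ACTA2, TAGLN, CNN1, CALD1, MYLK, MYH11, LMOD1, SMTN, ACTG2 and MYOCD. All 10 were found by symbol among the 35682 genes of the count tables, and all 10 were among the 13844 genes with enough counts to be tested. RNA was sequenced from 12 libraries, 1 of the border zone next to the infarct and 1 of the remote zone of each of 6 Yorkshire pigs (animals 1022, 1322, 1323, 1623, 1922 and 3622). The pigs were 10 to 12 weeks old at the start. In every pig the left anterior descending coronary artery was occluded by a balloon for 60 minutes. From day 9 after the injury they all received tacrolimus at 0.75 mg/kg, mycophenolate mofetil at 500 mg and prednisolone at 20 mg per day. On day 14 a left thoracotomy was made, and tissue was taken 28 days later. At thoracotomy a pig received either vascular organoids of human smooth muscle cells and human endothelial progenitor cells secured with fibrin glue, or fibrin glue alone. Both treatments are represented among the 6 pigs, but which pig received which was not used here. Each region therefore holds animals of both treatments, the spread between animals includes any difference between the treatments, and no comparison between treatments was made. The remote zone belongs to the same injured and immunosuppressed hearts, so it is not healthy tissue. Reads of implanted human cells could not be told apart from pig reads in these counts.

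Vascular smooth muscle cells contract when a calcium signal activates myosin light chain kinase, which lets smooth muscle myosin pull on actin filaments. The genes for this machinery are switched on by serum response factor, which binds a DNA element called the CArG box, and by its coactivator myocardin, which binds serum response factor. Several of these genes are also expressed by myofibroblasts, the contractile matrix-producing cells of a healing infarct, whereas others are more restricted to smooth muscle. Here ACTA2, TAGLN, CNN1, CALD1 and MYLK were taken as shared with myofibroblasts, MYH11, LMOD1, SMTN and ACTG2 as restricted to smooth muscle, and MYOCD was kept apart because cardiomyocytes express it as well. These classes come from general knowledge of the genes and not from these libraries, and the values of SMTN did not follow those of the other restricted genes.

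The 250 bases before the RefSeq gene start were read for 9 of the 10 genes from the pig genome Sscrofa11.1, to see which hold the element. The CArG box was searched on both strands, allowing at most 1 base of its A and T core to be off. It was found in 2 of these 9 genes, the actin genes ACTA2 and ACTG2, and these sequences are shown with the matches in capitals. ACTA2 (chr14:100886733-100886982, minus strand) held matches that begin at bases -125 and -75 (counted back from the gene start), each with 1 core base off. ACTG2 (chr3:69121543-69121792, minus strand) held 1 match at -148 with 1 base off.
ACTA2: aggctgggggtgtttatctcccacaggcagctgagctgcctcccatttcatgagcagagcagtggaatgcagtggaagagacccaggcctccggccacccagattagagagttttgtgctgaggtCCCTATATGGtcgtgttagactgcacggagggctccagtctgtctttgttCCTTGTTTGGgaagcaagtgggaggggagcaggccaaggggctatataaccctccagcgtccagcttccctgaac
ACTG2: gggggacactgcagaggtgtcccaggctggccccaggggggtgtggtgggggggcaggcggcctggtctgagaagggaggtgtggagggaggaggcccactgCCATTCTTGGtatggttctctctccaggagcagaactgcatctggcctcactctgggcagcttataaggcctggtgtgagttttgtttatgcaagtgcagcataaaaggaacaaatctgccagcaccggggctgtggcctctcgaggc
Of 19529 protein-coding genes on the chromosomes, 6.97% held a box with at most 1 core base off in this window. Windows of the other 7 genes did not contain these letters, which says nothing about elements elsewhere. The match is a description of the sequence, and binding was not measured.

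Smooth muscle actin genes are close relatives of the striated muscle actins, which the heart makes in large amounts, so their first 60 coding bases are shown beside those of cardiac ACTC1. The capitals in ACTG2 (chr3:69111755-69111814, minus strand) and ACTC1 (chr1:136281913-136281972, plus strand) mark bases that differ from ACTA2 in an alignment of the whole coding sequences. Those in ACTA2 (chr14:100883064-100883123, minus strand) mark bases that differ from, or face a gap in, either of the other two. The coding sequence of ACTG2 has 1131 bases against 1134 of ACTA2, so its alignment holds a gap near the start, and the printed lines are not shifted for it.
ACTA2: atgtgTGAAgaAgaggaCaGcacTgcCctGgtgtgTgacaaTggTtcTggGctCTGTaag
ACTG2: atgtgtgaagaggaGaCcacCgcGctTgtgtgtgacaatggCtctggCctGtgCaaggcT
ACTC1: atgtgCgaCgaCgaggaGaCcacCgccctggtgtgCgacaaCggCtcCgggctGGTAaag
Over the whole coding sequence, ACTA2 was identical to ACTG2 at 84.5% of aligned positions, to ACTC1 at 84.9% and to the skeletal actin ACTA1 at 86.9%. The longest run without a difference was 35 bases against ACTG2, 29 against ACTC1 and 35 against ACTA1, shorter than a read of 150 bases. How reads that match several genes were counted is not given in the sources used here, so the counts of the actins carry that uncertainty. ACTA1 was at 7610 to 32260 CPM, counts scaled to the library's size, across the 12 libraries and ACTC1 at 1593 to 6712 CPM. Between the regions they had log2 fold changes of -0.23 (SE 0.33) for ACTA1 and -0.05 (SE 0.37) for ACTC1.

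The libraries held 15130210 to 31618680 counts each, and TMM factors were used in the CPM. Library differences matter for these genes. The border zone library of animal 1022 was the highest of the 12 for 7 of the 10 genes, against 29.7% of all genes tested, and the remote zone library of the same animal was the lowest of the 12 for 7, against 7.07% of all genes. In that border library the mean log2 CPM of 14 myofibroblast markers was 10.1, against 5.50 to 7.41 in the other border libraries. Its mean over 11 cardiomyocyte markers was 9.89, against 11.8 to 12.4 in the others. The border library of animal 3622 listed 28024 genes with counts, against 16932 to 20148 in the other libraries, from the smallest total. Library names in the labels run from border to remote zone in the other 5 animals and from remote to border zone in animal 3622. Its regions were taken from the sample titles. By these titles its mean over the myofibroblast markers was 6.71 in the border and 3.81 in the remote library, within the ranges of the other animals (2.999 to 4.37 in their remote libraries), and its mean over the cardiomyocyte markers was 11.8 and 12.6. The fold change of each member, and their median, is therefore also given without the border library of animal 1022. The part that tissue composition has in these differences was not tested, and in bulk tissue more cells of a type and more RNA per cell cannot be told apart.

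None of the 10 genes passed the threshold between the regions, an adjusted p under 0.05 (edgeR, quasi-likelihood F-test, Benjamini-Hochberg over all genes tested). This fit has region as its only term and takes the 2 libraries of an animal as independent. Values with the animal as a block, which uses the pairing, are given further below. Among all genes 2.07% passed. Of the 10 genes 8 had a log2 fold change over 1 in favour of the border zone, against 11.8% of all genes, while SMTN and MYOCD had values below 0. The median log2 fold change of the 10 was 1.48, against 0.04 for all genes tested. Without the border library of animal 1022 the same 8 genes were above 0, but 2 of the 10, CNN1 and ACTG2, had a log2 fold change over 1, against 6.52% of all genes. The median of the 10 was then 0.87, against 0.03 for all genes. At an unadjusted p under 0.05 there were 9 of the 10 (all but MYOCD), against 24.7% of all genes, and 8 were higher in the border zone at an adjusted p under 0.1, against 8.11%. The CPM was higher in the border zone in all 6 animals for 3 genes, against 11.6% of all genes, and in at least 5 animals for 6 genes, against 28.5%. Leaving out animal 3622, the same 3 genes, CNN1, CALD1 and MYLK, were higher in all of the other 5, against 12.6% of all genes. The regions did not overlap, with all border libraries above all remote libraries, for CALD1 and MYLK, against 1.99% of all genes. DESeq2's Wald test gave an adjusted p to 8 of the 10 and called 6 of these, TAGLN, CNN1, CALD1, MYH11, LMOD1 and MYLK, all higher in the border zone, against 8.12% of the genes to which it gave one. It gave none to ACTA2 and ACTG2. Scaling by library totals in place of TMM called 8 of the 10, all but SMTN and MYOCD, against 11.2% of all genes, and under that scaling the median over all genes was 0.32 in place of 0.04.

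**Figure D1:**
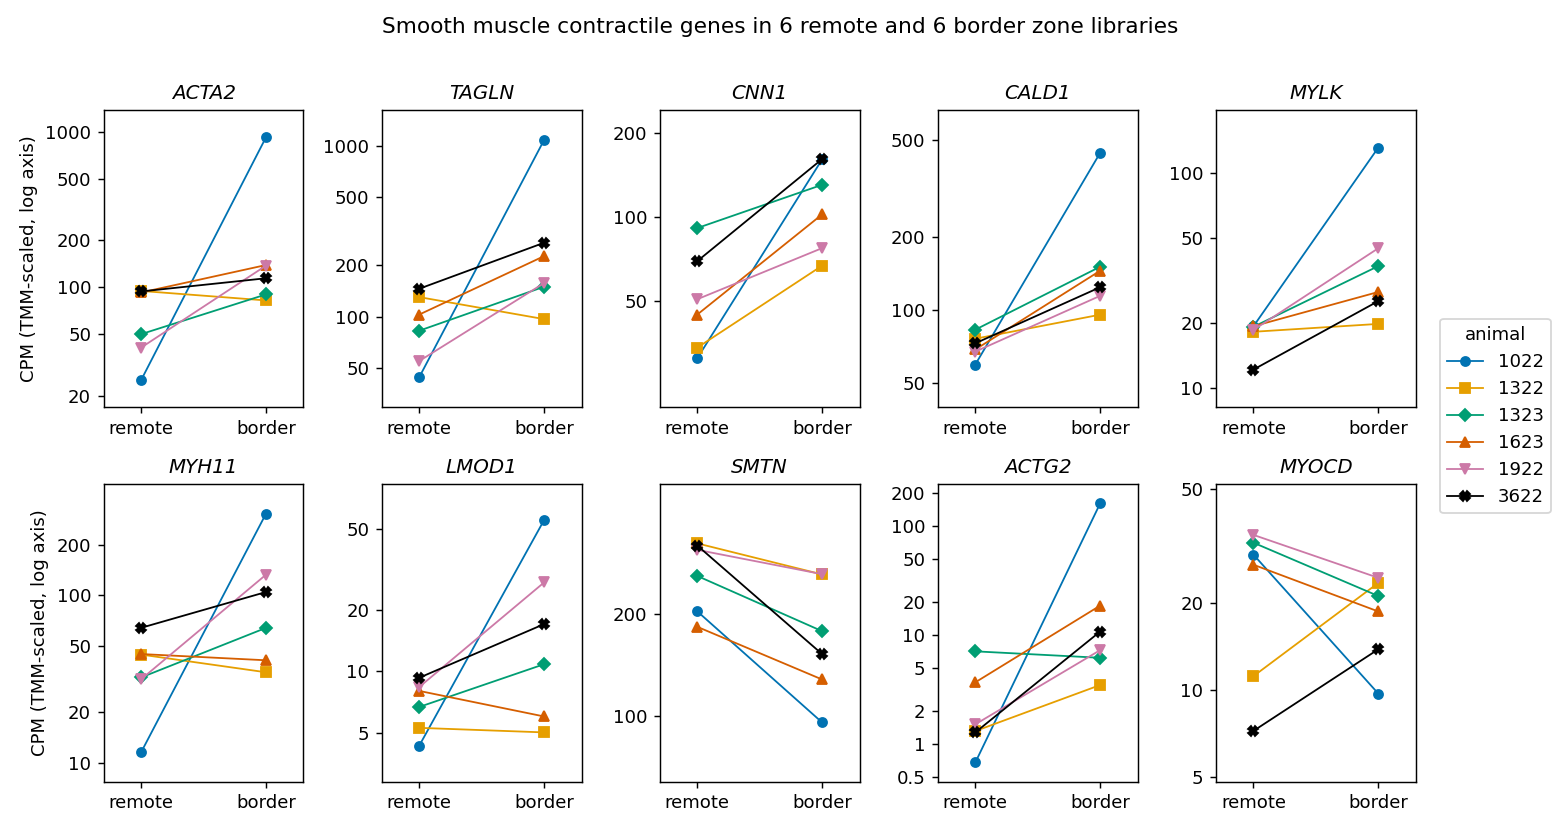
TMM-scaled CPM (log axis, different for each gene) of the 10 genes in the remote and border zone libraries of 6 pigs, with a line joining the libraries of 1 animal. Animal 1022 has the steepest line for most genes, ACTA2 going from 25.2 to 922 CPM, while SMTN is lower in the border zone in all 6 animals.

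The actins of the thin filament are given first. ACTA2 encodes the alpha actin of vascular smooth muscle and lies at chr14:100868145-100886732 on the minus strand. In the border zone its lowest, median and highest CPM were 82.1, 126 and 922, and in the remote zone they were 25.2, 71.1 and 94.5. The level of 922 CPM was in animal 1022, whose remote library had the 25.2 CPM, and the next border library was at 139 CPM. The border level was higher in 5 of 6 animals, and in animal 1322 it was 82.1 against 94.5 CPM. The log2 fold change was 1.91 (SE 0.62, adjusted p = 0.0973), and 0.76 (SE 0.32, adjusted p = 0.224) without the border library of animal 1022.

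ACTG2, the gamma actin typical of visceral smooth muscle, lies at chr3:69097366-69121542 on the minus strand. It was at 3.46, 8.97 and 161 CPM (lowest, median, highest) in the border zone and at 0.673, 1.41 and 7.04 CPM in the remote zone. It had the largest difference of the 10 genes, a log2 fold change of 3.72 (SE 0.98, adjusted p = 0.0588). Animal 1022 gave 161 CPM from 4887 reads in the border zone and 0.673 CPM from 17 reads in the remote zone. Without that border library the log2 fold change was 1.81 (SE 0.56, adjusted p = 0.119). Animal 1323 was the 1 animal in which ACTG2 was not higher in the border zone, with 6.15 against 7.04 CPM.

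Actin-binding regulators came next. TAGLN encodes transgelin, also called SM22 alpha, an early marker of the smooth muscle lineage (chr9:44561756-44567385, plus strand). It was at 96.9, 192 and 1078 CPM in the border zone and at 44.3, 92.9 and 146 CPM in the remote zone. As for ACTA2, 5 of 6 animals were higher in the border zone, animal 1322 was not, and animal 1022 stood above the rest. By edgeR this was a log2 fold change of 1.82 (SE 0.55, adjusted p = 0.0838), and 0.94 (SE 0.33, adjusted p = 0.153) without the border library of animal 1022.

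CNN1 encodes calponin 1, which binds actin and slows the myosin motor (chr2:70183370-70190756, plus strand). It was at 66.8, 116 and 161 CPM in the border zone and at 31.1, 47.7 and 91.1 CPM in the remote zone. It was higher in the border zone in 6 of 6 animals, with the narrowest range of the 8 genes with a positive fold change, between 0.51 in animal 1323 and 2.36 in animal 1022 on the log2(CPM + 0.1) scale. The highest border libraries were those of animals 3622 and 1022, at 161.0 and 160.6 CPM, so animal 1022 did not stand apart here. The log2 fold change was 1.13 (SE 0.30, adjusted p = 0.0619), and 1.0 (SE 0.30, adjusted p = 0.103) without the border library of animal 1022.

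CALD1 encodes caldesmon, which blocks myosin from actin until it is phosphorylated (chr18:14267955-14486641, minus strand). Its border levels were 95.6, 135 and 442 CPM and its remote levels 59.7, 70.9 and 83.0 CPM, so the regions did not overlap. The 6 remote libraries were close together, with an SD of log2 CPM of 0.16, against a median of 0.38 for all genes tested. With a log2 fold change of 1.33 (SE 0.33), CALD1 had the lowest adjusted p of the 10 genes, 0.0513. Without the border library of animal 1022 the difference was smaller, 0.82 (SE 0.14), and passed the threshold at an adjusted p of 0.00904, as 2.15% of all genes did in that direction. It also passed without both libraries of animal 1022 (0.77, adjusted p = 0.0281, 1.14% of genes) and without both of animal 1322 (1.46, adjusted p = 0.0493, 3.64% of genes).

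LMOD1 encodes leiomodin 1, which starts new actin filaments in smooth muscle (chr10:24165293-24194823, minus strand). It was at 5.01, 13.9 and 55.01 CPM in the border zone and at 4.31, 7.34 and 9.29 CPM in the remote zone. The border level was higher in 4 of 6 animals, and animals 1322 and 1623 were lower, at 5.01 against 5.28 CPM and 6.0 against 8.01 CPM. Between the regions this came to a log2 fold change of 1.54 (SE 0.51, adjusted p = 0.0999), and 0.93 (SE 0.39, adjusted p = 0.231) without the border library of animal 1022.

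SMTN was the exception among the actin-binding members. It encodes smoothelin, a cytoskeletal protein of contractile smooth muscle, and lies at chr14:47879317-47902700 on the plus strand. It was at 95.4, 165 and 263 CPM in the border zone and at 184, 286 and 325 CPM in the remote zone, lower in the border zone in all 6 animals, against 11.2% of all genes. The within-animal differences ran from -1.10 in animal 1022 to -0.24 in animal 1922 on the log2(CPM + 0.1) scale. The log2 fold change was -0.57 (SE 0.26, adjusted p = 0.201), and -0.44 (SE 0.23, adjusted p = 0.335) without the border library of animal 1022. Across the 12 libraries its log2 CPM had a Pearson r of 0.84 with the mean of the cardiomyocyte markers, and of 0.89 without the border library of animal 1022. For the 8 genes that were higher in the border zone the r with these markers was negative, from -0.61 for CNN1 to -0.93 for CALD1. Without that library r was closer to 0 for 7 of the 8, at -0.45 for ACTA2, -0.37 for MYH11 and -0.41 for LMOD1, and -0.79 for CALD1, and it was -0.63 for CNN1. Most of the other marker lists moved with the members too. SMTN had an r of -0.85 with the macrophage and -0.82 with the myofibroblast markers, or -0.74 and -0.68 without the border library of animal 1022. Over the other 8 genes r was 0.81 (CNN1) to 0.96 (TAGLN) with the pericyte markers, 0.74 (LMOD1) to 0.96 (CALD1) with the myofibroblast markers and 0.79 to 0.92 with the fibroblast markers. It was 0.65 to 0.92 with the macrophage and 0.11 to 0.61 with the endothelial markers. These ranges also moved when that library was left out, to 0.68 (MYLK) to 0.90 (TAGLN) for the pericyte, 0.49 (LMOD1) to 0.95 (CALD1) for the myofibroblast and 0.64 to 0.90 for the fibroblast markers. The macrophage range was then 0.16 (LMOD1) to 0.74 (CALD1) and the endothelial range -0.12 (MYLK) to 0.66 (ACTA2). MYOCD had an r of 0.34 with the cardiomyocyte markers, which turned to -0.15 without that library, and of -0.78 with the endothelial markers in both cases. The r of SMTN with MYH11 was -0.46, and -0.07 without it. The libraries share 6 animals and are not independent, and these values are descriptions.

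The motor and its kinase are given next. MYH11 is the myosin heavy chain of smooth muscle and a specific marker of it (chr3:7002667-7143093, plus strand). It was at 34.7, 84.2 and 307 CPM in the border zone and at 11.6, 38.2 and 63.9 CPM in the remote zone. The border level was higher in 4 of 6 animals. In animals 1322 and 1623 it was lower, at 34.7 against 44.2 CPM and 40.9 against 44.5 CPM, the same animals as for LMOD1. By edgeR this gave a log2 fold change of 1.59 (SE 0.52, adjusted p = 0.0982), and 0.99 (SE 0.41, adjusted p = 0.221) without the border library of animal 1022.

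MYLK encodes myosin light chain kinase, which starts contraction (chr13:136509878-136809674, plus strand). It was at 19.9, 32.5 and 132 CPM in the border zone and at 12.2, 18.9 and 19.4 CPM in the remote zone. The regions did not overlap and 6 of 6 animals were higher in the border zone, though by little in animal 1322, at 19.9 against 18.3 CPM. In the remote zone 5 libraries lay between 18.3 and 19.4 CPM and that of animal 3622 lay below them at 12.2 CPM. The log2 fold change was 1.43 (SE 0.40, adjusted p = 0.0697), and 0.80 (SE 0.20, adjusted p = 0.063) without the border library of animal 1022. MYLK shares 130 of its exon bases, 1.41%, with a long noncoding RNA on the opposite strand, and reads there cannot be told apart in libraries without strand. No other member shared exon bases with an overlapping gene in the RefSeq annotation.

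MYOCD, the coactivator, was lower in the border zone in most animals. It lies at chr12:56931628-57029258 on the plus strand and was at 9.73, 20.0 and 24.6 CPM in the border zone and at 7.22, 28.4 and 34.6 CPM in the remote zone. The border level was higher in 2 of 6 animals, 1322 (23.6 against 11.2 CPM) and 3622 (13.9 against 7.22 CPM), and lower in the other 4. In animal 1022, where most contractile genes were at their highest in the border zone, MYOCD was at 9.73 CPM there and at 29.6 CPM in the remote zone. Its log2 fold change was -0.35 (SE 0.36, adjusted p = 0.572), and -0.22 (SE 0.35, adjusted p = 0.821) without the border library of animal 1022.

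**Figure D2:**
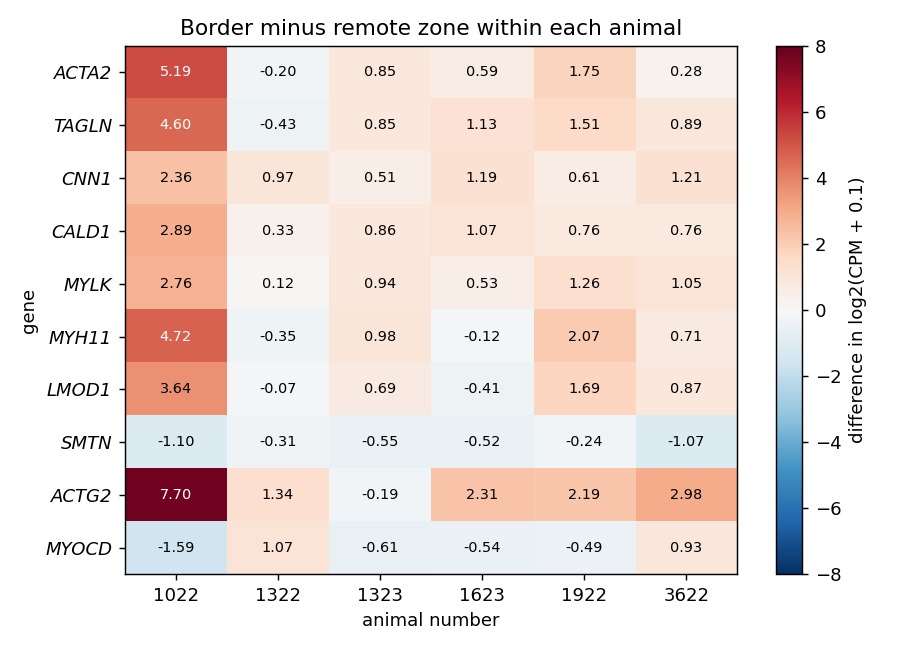
Difference between border and remote zone within each animal, in log2(CPM + 0.1), for the 10 genes (vertical) and 6 animals (horizontal), with red for higher and blue for lower in the border zone. Animal 1022 holds the extreme value of every gene, from 7.70 for ACTG2 to -1.59 for MYOCD, and SMTN is negative throughout.

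Within animals, animal 1022 had differences between 2.36 and 7.70 for the 8 genes that were higher, and animal 1922 between 0.61 and 2.19. In animal 1322 ACTA2, TAGLN, MYH11 and LMOD1 were between -0.43 and -0.07, and its border library was the lowest border library for 8 of the 10 genes, against 20.9% of all genes. The SD of log2 CPM among the border libraries had a median of 1.07 over the 10 genes, against 0.47 over all genes tested, and among the remote libraries 0.64 against 0.38. The border SD was 1.94 for ACTG2, 1.31 for LMOD1, 1.29 for ACTA2, 1.21 for TAGLN and 1.18 for MYH11, and 0.51 to 0.58 for MYOCD, CNN1 and SMTN. Without animal 1022 the median border SD of the 10 genes was 0.50.

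With the animal as a block, which uses the pairing of the libraries, 0 of the 10 genes passed in edgeR, against 0.296% of all genes, and 6 had an unadjusted p under 0.05, against 29.4%. The log2 fold changes under the block were 1.19 for ACTA2 (adjusted p = 0.238), 1.31 for TAGLN (0.165), 2.47 for ACTG2 (0.121) and 1.19 for MYH11 (0.231). CNN1 had the lowest adjusted p there, 0.0732, at a log2 fold change of 1.14. CALD1 was at 1.09 (adjusted p = 0.0889), MYLK at 1.10 (0.0861), LMOD1 at 1.03 (0.201) and MYOCD at -0.22 (0.6855). SMTN had a log2 fold change of -0.63 and an adjusted p of 0.0874. Without animal 1022, the block called 4 of the 10 genes, CNN1 (0.90, adjusted p = 0.0116), CALD1 (0.76, adjusted p = 0.0176), MYLK (0.78, adjusted p = 0.0372) and ACTG2 (1.73, adjusted p = 0.0476), all higher in the border zone, against 4.11% of the genes tested in that fit.

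**Figure D3:**
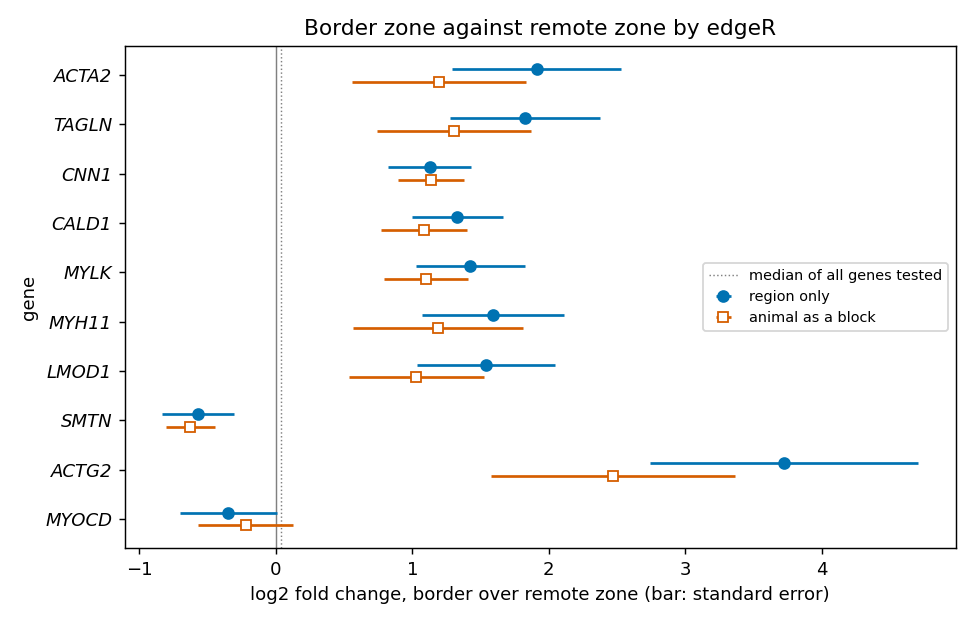
Log2 fold change of border over remote zone with its standard error for each gene, by edgeR with region as the only term (filled circles) and with the animal as a block (open squares); the dotted line is the median of all genes tested, 0.04. CNN1 is at 1.13 and 1.14 in both fits, while ACTA2 is at 1.91 and 1.19.

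Members shared with myofibroblasts were compared with those restricted to smooth muscle. The median log2 fold change was 1.43 over the 5 shared and 1.56 over the 4 restricted genes, or 1.59 over the restricted genes other than SMTN, whose levels followed the cardiomyocyte markers. The medians were 0.82 and 0.96 without the border library of animal 1022. The shared median minus the restricted median of these edgeR values was -0.14 with and without that library. Taken instead from the within-animal differences in log2(CPM + 0.1), it had an SD of 0.93 over the 6 animals. Within animals it was -1.30 in 1022 and -0.62 in 1922, but 0.10 in 3622, 0.31 in 1322, 0.61 in 1323 and 1.34 in 1623. With the animal as a block it was 0.03, and with MYLK and MYOCD counted among the restricted genes it was 0.09, so its sign was not stable.

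The ratio of each gene to MYH11 in the same library was examined next, because it does not depend on how libraries are scaled apart from the added 0.1 CPM. Over 9 ratios, none differed between the regions at an adjusted p under 0.05 by the exact two-sided permutation test over 6 animals, whose smallest p is 0.03125. At least 6 of the 9 ratios would have to reach that p together for an adjusted p under 0.05, so the test could hardly pass. The number with an unadjusted p under 0.05 was also 0. ACTA2 was at a median of 1.89 times MYH11 in the border zone and 1.81 times in the remote zone. The mean log2 difference of that ratio was 0.07 (SD 0.45, n = 6; exact p = 0.688, adjusted p = 0.844), although ACTA2 itself varied widely between libraries. The ratio of TAGLN to MYH11 had a mean log2 difference of 0.09 (SD 0.62) and that of LMOD1 one of -0.27 (SD 0.48). The ratio of ACTG2 to MYH11 was higher in the border zone in 5 of 6 animals, by 1.39 (SD 1.59, n = 6; exact p = 0.0938, adjusted p = 0.422) on the log2 scale. The ratio of SMTN to MYH11 was lower in 5 of 6 animals, by a mean of -1.97 (SD 2.08, n = 6; exact p = 0.0625, adjusted p = 0.422), and animal 1322 was at 0.04. Animal 1022 was at -5.82, and the mean over the other 5 animals was -1.2. For MYOCD the mean was -1.54 (SD 2.72), with animal 1022 at -6.31 and a mean of -0.59 over the other 5 animals. For CNN1, CALD1 and MYLK the mean lay between -0.19 and -0.22, with 3 animals on either side of 0.

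**Figure D4:**
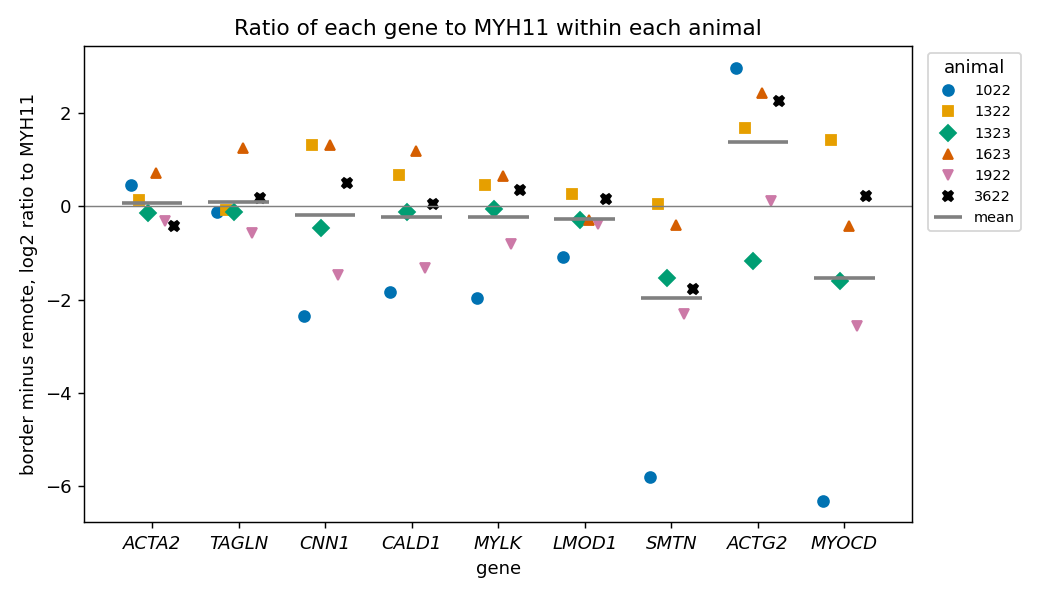
Border minus remote difference of the log2 ratio of each gene to MYH11, with 1 point per animal and a grey line for the mean of 6 animals. ACTA2 and TAGLN lie near 0, with means of 0.07 and 0.09, SMTN lies below 0 in 5 of 6 animals and ACTG2 above 0 in 5 of 6.

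Levels per kilobase of RefSeq exon were used to order the genes. In the remote zone the medians were 87.2 CPM per kb for SMTN, 62.9 for TAGLN, 50.7 for ACTA2, 29.5 for CNN1, 10.2 for CALD1 and 10.2 for MYOCD, followed by 5.70 for MYH11, 2.05 for MYLK, 2.01 for LMOD1 and 0.949 for ACTG2. Neighbours in this order overlapped over the libraries except CNN1 (19.3 to 56.5) and CALD1 (8.61 to 12.0). In the border zone TAGLN led with 130 CPM per kb (129.7), before ACTA2 with 89.6, CNN1 with 71.98, SMTN with 50.5 and CALD1 with 19.4. MYH11 was at 12.6, MYOCD at 7.14, ACTG2 at 6.05, LMOD1 at 3.81 and MYLK at 3.51 CPM per kb, and all neighbours overlapped. Exon lengths are those of RefSeq whereas reads were counted on Ensembl genes, so these levels are approximate.

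Genes whose log2 CPM was most like that of ACTA2 across the 12 libraries were GNB4, a G protein subunit (r = 0.97), TLE1, a transcriptional corepressor (0.97), ASAP1 (0.97), ARMC10 (0.96) and IGFBP7, a secreted binding protein (0.96). Those most like MYH11 were the Notch ligand JAG1 (0.97), the receptors NOTCH3 (0.96), PDGFRB (0.96) and NOTCH1 (0.96), and DAAM2 (0.96). Without the border library of animal 1022 the r values were between 0.89 and 0.92 for the ACTA2 group and between 0.92 and 0.95 for the MYH11 group. The order among such close values was not stable. By rank correlation 2 of the 5 genes for ACTA2 and 1 of the 5 for MYH11 stayed among the first 5. None of the 10 passed the test between regions, with adjusted p between 0.0921 and 0.205 (edgeR). Among the 8 members that were higher in the border zone, the 28 pairs had a median r of 0.81, or 0.63 without the border library of animal 1022. The 16 pairs of SMTN or MYOCD with these 8 had a median r of -0.58, or -0.35 without it.

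Other genes linked to smooth muscle, though not all specific to it, were read from lists of contractile, signalling and transcription genes. Of these 43 were tested, of which 1 passed the threshold in edgeR, against 2.07% of all genes, and 8 did in DESeq2, 7 of them higher in the border zone, against 9.84% of the genes to which DESeq2 gave an adjusted p. The gene that passed in edgeR was KCNMA1, the calcium-activated potassium channel that relaxes smooth muscle. It was at 2.56, 3.91 and 16.6 CPM in the border zone and at 0.475, 0.724 and 1.19 CPM in the remote zone, without overlap. Its log2 fold change was 3.07 (SE 0.51, adjusted p = 0.0189), and with the animal as a block the adjusted p was 0.065. The fold change was 2.48 without the border library of animal 1022 (SE 0.38, adjusted p = 0.00461). Without animal 1323, 1623, 1922 or 3622 none of the listed genes passed, but in these fits between 0 and 15 genes passed in all.

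Among all genes tested in edgeR 2.07% passed and 24.7% had an unadjusted p under 0.05, in either direction, and the median was 0.04. Of 18 further genes of the contractile apparatus, 13 were higher in the border zone and 0 passed in edgeR (4 higher at an unadjusted p under 0.05), with a median log2 fold change of 0.23. Those with the largest differences were the integrin ITGA8 (4.15, SE 1.05, adjusted p = 0.052), the actin cross-linker ACTN1 (1.80, SE 0.44, adjusted p = 0.0501) and filamin FLNA (1.49, SE 0.45, adjusted p = 0.0862). They were 2.12, 1.06 (adjusted p = 0.0105) and 0.73 without the border library of animal 1022, where ACTN1 passed. Of 10 transcription genes 7 were higher and 0 passed, with a median of 0.25. At an unadjusted p under 0.05 there were 4 higher and 1 lower, against the same 24.7% of all genes. The lower gene was FOXO4, named after its values were seen, at -0.66 (SE 0.22, adjusted p = 0.108) and below the remote zone in all 6 animals. The largest differences were those of PRRX1 (2.15, SE 0.53, adjusted p = 0.0503), TCF21 (1.29, SE 0.39) and MRTFA (0.97, SE 0.40). PRRX1 passed without the border library of animal 1022, at 1.299 (SE 0.30, adjusted p = 0.0428). TCF21 was then at 1.22, but MRTFA was at 0.40 and no longer among the 3 largest, with FOXO4 at -0.55 and KLF4 at 0.52. Chosen after the values were seen, the regulatory light chain MYL9 had a log2 fold change of 0.12 (SE 0.25), desmin (DES) one of 0.23 (SE 0.29) and SRF, the DNA-binding partner of myocardin, one of -0.26 (SE 0.34). MYL9 was at 410 to 898 CPM in the border zone and at 398 to 928 CPM in the remote zone.

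Of 12 relatives of the members outside smooth muscle, 7 were higher in the border zone and 0 passed in edgeR, with a median log2 fold change of 0.50 (5 higher and 1 lower, SMTNL2, at an unadjusted p under 0.05). DESeq2, which tested MYLK2 as well, called CNN3 and MYLK2, against 9.84% of its genes, and gave MYH9 no adjusted p. MYLK2 was near the floor, at 0.097 to 0.787 CPM in the border zone and 0 to 0.145 CPM in the remote zone. In edgeR without the border library of animal 1022 the median was 0.23 and 2 passed, CNN3 (0.67, adjusted p = 0.0318) and MYH9 (0.70, adjusted p = 0.0495). Both were higher in the border zone, as 2.15% of all genes were at that threshold. The nonmuscle myosin MYH9 (1.49, SE 0.45, adjusted p = 0.0824), the cytoplasmic actin ACTG1 (1.18, SE 0.41, adjusted p = 0.118) and LMOD3 (1.14, SE 0.49, adjusted p = 0.173) had the largest differences. The values of MYH9 and ACTG1 stood beside 1.59 for MYH11 and 1.91 for ACTA2. Without that library MYH9 was at 0.70 and ACTG1 at 0.55, beside 0.99 for MYH11 and 0.76 for ACTA2, and LMOD3 was at 1.21.

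Markers of other cell types are given beside the members. Among all genes tested in edgeR 2.07% passed and 24.7% had an unadjusted p under 0.05, in either direction. All 14 of 14 myofibroblast markers were higher in the border zone and 13 passed, with a median log2 fold change of 4.35, examples being FN1 (5.09), COL1A1 (4.05) and POSTN (3.44). Their summed level was 3004 to 70220 CPM in the border libraries and 863 to 2218 CPM in the remote libraries. Of 9 fibroblast markers 9 were higher and 3 passed, with sums of 2122 to 8114 and 1217 to 2459 CPM. Of 10 macrophage markers 10 were higher and 1 passed, with sums of 137 to 1689 and 123 to 264 CPM. Of 9 pericyte markers tested 6 were higher and 0 passed (5 at an unadjusted p under 0.05), with sums of 471 to 937 and 393 to 602 CPM. HIGD1B, a pericyte marker not tested, was at 0 to 0.334 CPM. Of 11 endothelial markers 8 were higher and 0 passed (0 at an unadjusted p under 0.05), with sums of 434 to 621 and 326 to 746 CPM. Of 11 cardiomyocyte markers 0 were higher and 0 passed (3 lower ones at an unadjusted p under 0.05), with sums of 13140 to 77490 CPM in the border zone and 62270 to 111900 CPM in the remote zone. With the animal as a block 3 myofibroblast markers and 1 fibroblast marker passed, against 0.296% of all genes. Without the border library of animal 1022 the median was 2.84 over the myofibroblast markers, of which 13 passed, 0.62 over the macrophage markers, of which 0 passed, and -0.32 over the cardiomyocyte markers. In that fit the pericyte median was 0.48, against 0.81 with all libraries, and 1 pericyte marker passed. The fibroblast median was 0.99, with 3 passing, and the endothelial median 0.07, with 0 passing. Among all genes 2.15% passed as higher in the border zone. The lists overlap in TCF21, PLN and ACTC1, which each stand on 2 lists. No listed marker was at 0 in all libraries, and the cardiomyocyte markers of the labelled tissue, heart, were present throughout. The part of these cell types in the levels of the contractile genes was not tested.

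**Figure D5:**
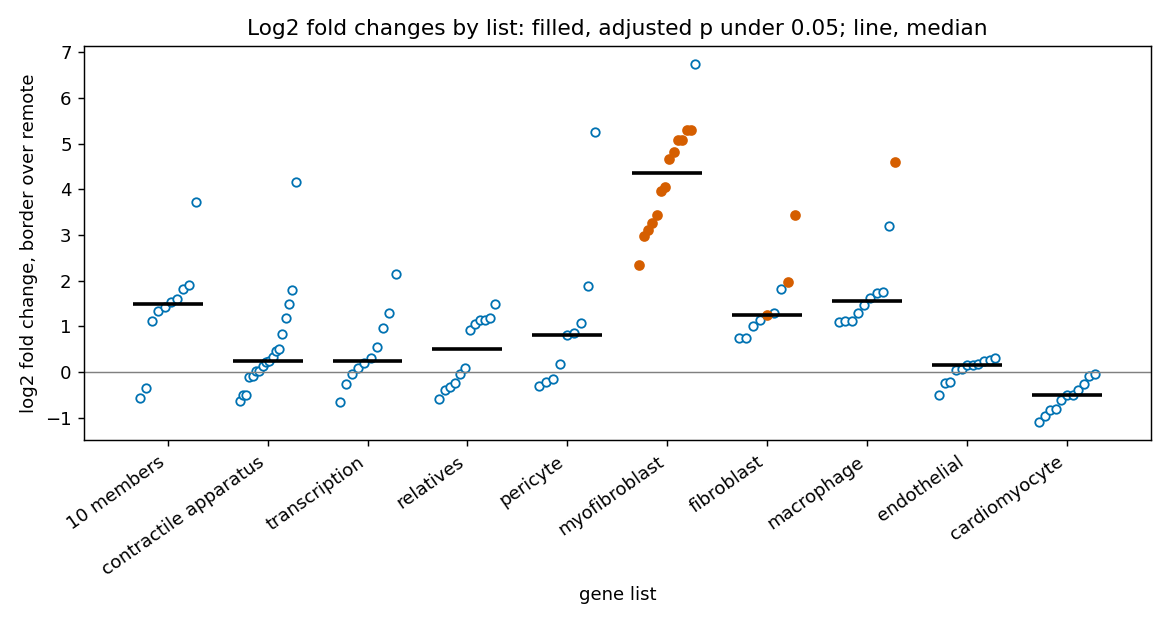
Log2 fold changes of border over remote zone (vertical) for the 10 members and the genes of the lists shown (horizontal), with filled points for an adjusted p under 0.05 by edgeR and a line at the median. The members have a median of 1.48, the myofibroblast markers one of 4.35 and the cardiomyocyte markers one of -0.51; without the border library of animal 1022 these medians were 0.87, 2.84 and -0.32.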

How the data were processed

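Libraries of the border and remote zone of 6 pigs were grouped by the region and animal number in the sample labels. The authors deposited raw counts per gene (per the file headers and the study's methods), made from poly(A)-selected paired reads of 150 bp without strand by STAR 2.7.10a on Sscrofa11.1, with Ensembl release 113 and featureCounts 2.16.1. The submitters' processing notes also name MultiQC and DESeq2. Counting options for reads that match several genes are not given in the sources used here. Each file holds 1 library, and 0 columns of per-sample values were left unused.

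Counts were analysed with R 4.3.3, edgeR 4.0.16 and DESeq2 1.42.0, and with Python 3.11.15, pandas 2.3.3 and NumPy 2.4.6. Genes passing filterByExpr were scaled by TMM and compared between regions by edgeR's robust quasi-likelihood test, with region as the only term. Benjamini-Hochberg adjustment ran over all genes tested, at an adjusted p under 0.05. Standard errors were taken as log2 fold change over the root of F. Log2 CPM used a prior count of 2, and within-animal differences and ratios used log2(CPM + 0.1), which understates differences of low genes. The steps were tested on simulated data. Symbols were paired with 15623 of the 35682 gene identifiers by a supplied table. SYNM, FHL1, FHL2, TAGLN2, MYH10, MYH7, TTN and MB had no identifier by it and were not analysed here. Promoters, coding sequences and exon lengths came from the RefSeq annotation of Sscrofa11.1, the build of the counts. The promoter of 1 member and the summary of 1 list of signalling genes are not reported here.

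The members and lists were chosen with earlier results of these data known. The genes named by rule are all members, listed genes that passed, up to 3 others per list with the largest absolute log2 fold change, the 5 genes most correlated with ACTA2 and the 5 with MYH11, and up to 3 example markers. Named outside this rule, some after their values were seen, are ACTA1, ACTC1, PLN, MYL9, DES, SRF, FOXO4, KLF4, SMTNL2 and HIGD1B. Of the signalling list only the gene that passed is named. Alternatives were the animal as a block, DESeq2's Wald test, DESeq2 size factors, no filter, each animal left out, another pseudocount and prior count, library totals for the ratios, rank correlation and MYLK and MYOCD moved between classes. Library totals for the test, the border library of animal 1022 or 3622 left out, the block without either animal, unpaired ratios and the leave-out values of spread and likeness were chosen after seeing the data.

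Both libraries of a number come from the same animal, so the numbers pair the libraries. Their deviations from the region means correlated across genes with r from -0.03 (animal 1022) to 0.57 (animal 1323), with a mean of 0.35, and 4 of 6 were over 0.1. Whether counts hold PCR copies of a molecule cannot be seen, and their number covers counting error only.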

Additional observations from a re-analysis of the deposited data

Results flagged for a closer look

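Each group of 6 values (the 10 genes in each region, their within-animal differences and the ratios to MYH11) was checked for an end value far from the rest by Dixon's criterion at the 95% level, on the log2(CPM + 0.1) scale. Of 39 groups 5 held such a value on that scale. Chance gives about 1 in 20 for independent groups, but these share libraries and genes, so the counts cannot be set against that share. On the CPM scale itself, added after seeing the data, 6 of the 10 border groups held one, all in the library of animal 1022 (ACTA2, TAGLN, CALD1, MYH11, ACTG2 and MYLK), and 1 of the 10 remote groups. No share over all genes is given here for these counts, and that border library was the highest of the 12 for 29.7% of all genes. ACTA2 was at 922 CPM in the border library of animal 1022, with the next border library at 139 CPM, and its within-animal log2 difference there was 5.19, with the next animal at 1.75. CALD1 was at 442 CPM in the same library, with the next at 151 CPM, and its difference was 2.89, with the next at 1.07. MYLK was at 12.2 CPM in the remote library of animal 3622, with the next at 18.3 CPM. The cause was not tested.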

How the results depend on the processing

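Of the fold changes of the 10 genes under the alternatives, 126 kept their direction and their side of the threshold, 21 kept their direction and passed it, and 1 reversed, that of MYOCD, which was 0.035 with the animal as a replicate block without animal 1022. The count of members past the threshold, 0, was 6 by DESeq2's Wald test, 8 with library totals in place of TMM, 1 without the border library of animal 1022, 4 with the block without animal 1022, and 0 to 1 without each animal. Library totals move the median of all genes from 0.04 to 0.32 (log2), and the 8 genes were ACTA2, TAGLN, CNN1, CALD1, MYH11, LMOD1, ACTG2 and MYLK.

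The count of all genes past the threshold, 287, was 41 with the replicate block, 139 without a filter, 1683 by DESeq2, 1551 with library totals, 0 to 519 without each animal, 156 without the border library of animal 3622, 856 with the block without animal 1022 and 0 with the block without animal 3622. The count of listed pathway genes, 1, was 0 with the replicate block, 8 by DESeq2, 10 with library totals, 0 to 4 without each animal, 3 without the border library of animal 1022, and 5 or 0 with the block without animal 1022 or 3622. The count of relatives, 0, was 2 by DESeq2, 3 with library totals, 2 without the border library of animal 1022 and 1 with the block without animal 1022.

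None of the ratios to MYH11 passed under any alternative, and with 5 animals the smallest exact p is 0.0625. Some mean log2 ratios changed sign when an animal was left out. The ratio of ACTA2 was -0.053 to 0.17 (negative without 1022, at -0.0047, or 1623), of TAGLN -0.14 to 0.22 (negative without 1623), of CNN1 -0.49 to 0.24 (positive without 1022, or 1922, at 0.064), of CALD1 -0.51 to 0.10 and of MYLK -0.40 to 0.12 (both positive without 1022). Of the 5 genes most like ACTA2, 2 stayed by rank correlation and 1 to 3 without each animal. For MYH11 these were 1, and 0 to 4. The median border SD, 1.07, was 0.50 to 1.19 without each animal. The causes were not tested. The small number of animals and the spread between them limit the precision.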
